A study of Mus musculus with 8 samples.

Results

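The Hippo genes examined here are 10 genes of the pathway and of its transcriptional output, Yap1, Wwtr1, Tead1, Lats1, Lats2, Sav1, Ctgf, Cyr61, Ankrd1 and Amotl2. They were chosen by symbol from the 26667 genes of the count table, and all 10 were in it. RNA-seq was carried out on undifferentiated pleomorphic sarcoma (UPS) of the hind limb, a soft tissue tumour, with 1 library per tumour made from fixed and paraffin-embedded tissue (FFPE). The 4 KP tumours (KP 5 to KP 8) came from KP mice, which carry Trp53 fl/fl, and the 4 KPH2 tumours (KPH2 1 to KPH2 4) from mice with the same alleles plus Epas1 fl/fl, which additionally lose Epas1, the gene of HIF-2α. Both groups had deleted Trp53, were on a mixed 129/C57BL/6 background, and received adenovirus carrying Cre recombinase (Ad-Cre) in the hind limb muscle at 8 weeks of age or older. Cre acts in the infected cells and their progeny, so that the host cells within a KPH2 tumour keep Epas1. The study excluded 1 KPH2 tumour as an outlier on technical grounds, taken here to be KPH2 1, since its column is missing from the authors' 7-tumour table of normalized values. The main comparison is therefore KPH2 2 to KPH2 4 (n = 3) against KP 5 to KP 8 (n = 4), with KPH2 1 shown apart and added back in a comparison of all 8 tumours.

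The Hippo pathway is a kinase cascade that restrains tissue growth. The MST kinases, held by the scaffold SAV1, activate LATS1 and LATS2, which phosphorylate YAP (Yap1) and TAZ (Wwtr1) and so keep them in the cytoplasm or direct them to degradation. Unphosphorylated YAP and TAZ enter the nucleus, bind the TEAD factors and switch on genes such as Ctgf, Cyr61, Ankrd1 and Amotl2, while in muscle and sarcoma YAP is known as a driver of proliferation. Since the cascade works largely by phosphorylation and location of its proteins, transcript levels describe the supply of its components and the level of its target mRNAs, and not its activity.

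Values are given as CPM, counts per 1e+06 counts of the TMM-scaled library, where TMM is a normalization for library composition. Total counts ran from 6463221 to 13155510 per tumour, and the 10 genes were counted between 196 and 27208 times in each. Epas1 (chr17:86753864-86833410, all positions GRCm38) was counted at 59.2, 83.2, 86.9 and 84.1 CPM in KP 5 to 8, at 53.4, 37.7 and 42.5 CPM in KPH2 2 to 4 and at 32.6 CPM in KPH2 1. All 4 KPH2 tumours lay below all 4 KP tumours. By the quasi-likelihood test of edgeR, the log2 fold change was -0.81 ± 0.19 (SE) over the 7 tumours, with an adjusted p of 0.0742, and -0.91 ± 0.19 over all 8, with an adjusted p of 0.117. The most counted gene of each library, the ribosomal RNA precursor Rn45s in 7 of 8, took 1.40 to 2.79% of counts in KP and 3.58 to 9.83% in KPH2 tumours, and its part in the results below was not tested. The 8 mesenchymal tumour markers summed to between 17790 and 42291 CPM in every tumour. In bulk RNA, fewer cells of a type and less RNA per cell cannot be told apart.

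Per kilobase of exon, the 10 genes spanned about an order of magnitude in the KP tumours. Wwtr1 was at 108 ± 1.27 CPM per kb (SD, n = 4), Ctgf at 107 ± 67.8, Cyr61 at 62.2 ± 17.1, Tead1 at 49.6 ± 4.99, Yap1 at 46.3 ± 13.7 and Sav1 at 32.7 ± 3.32. The lower 4 were Lats1 at 23.1 ± 1.22, Ankrd1 at 17.2 ± 6.40, Lats2 at 14.5 ± 1.76 and Amotl2 at 11.3 ± 2.35 CPM per kb. Only Sav1 and Lats1 were neighbours in this order whose KP values did not overlap. In KPH2 2 to 4 the order differed mainly at the targets, where Ankrd1 was at 51.8 ± 2.65 CPM per kb (SD, n = 3), Cyr61 at 34.9 ± 11.6 and Ctgf at 32.3 ± 6.42.

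**Figure D1:**
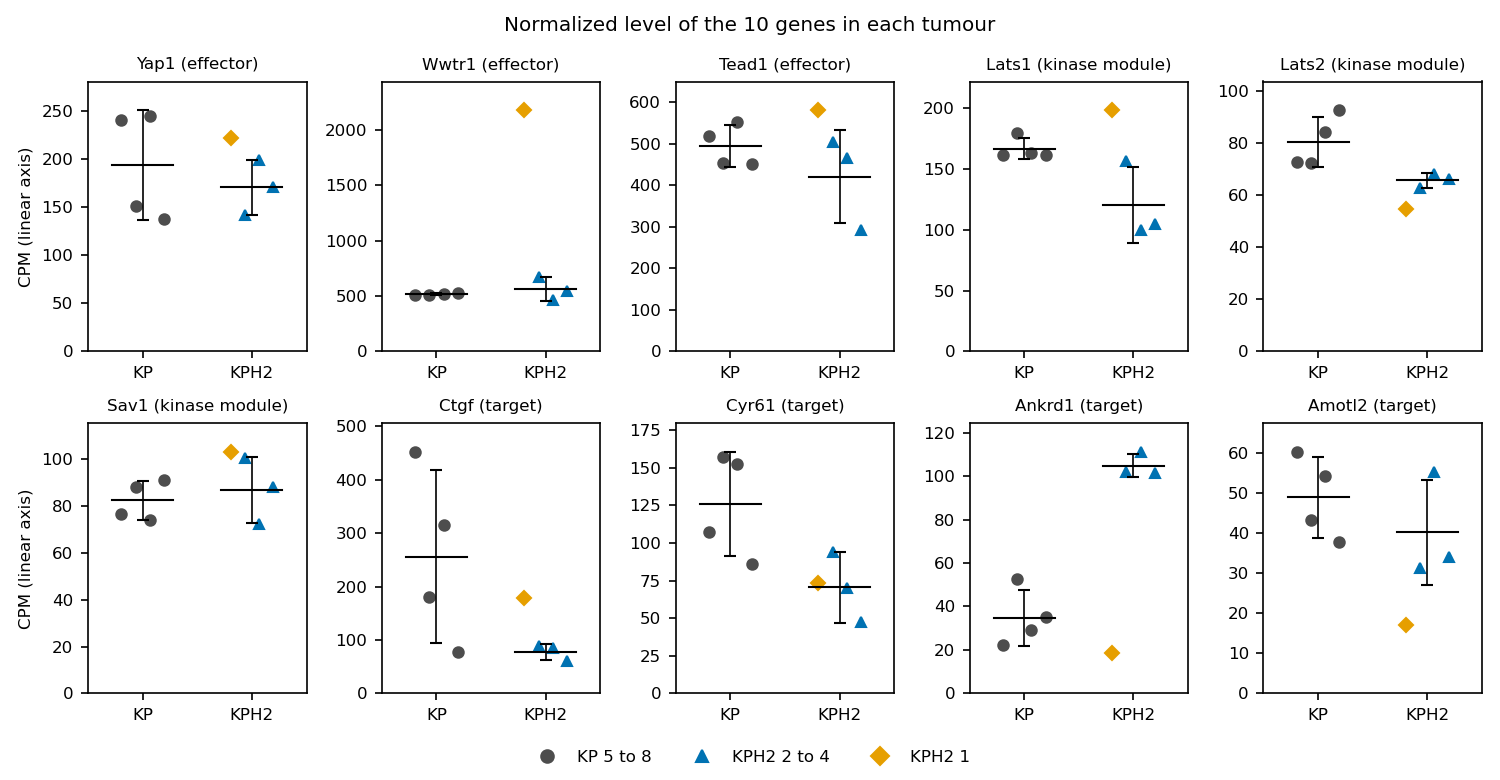
Level of each of the 10 genes in CPM on a linear axis from 0, one panel per gene, with KP 5 to 8 as circles, KPH2 2 to 4 as triangles and KPH2 1 as a diamond. Lines and bars are the mean and SD of KP 5 to 8 and of KPH2 2 to 4; Ankrd1 separates the groups upward at 101 to 111 CPM against 22.4 to 52.5 CPM, and Wwtr1 reaches 2175 CPM in KPH2 1.

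Among the effectors, Yap1 (chr9:7931999-8004638) varied as much within KP as between the groups. It was counted at 239.7, 151, 244.8 and 137 CPM in KP 5 to 8, at 142, 199 and 171 CPM in KPH2 2 to 4, and at 222 CPM in KPH2 1. KP 5 and KP 7 were high and KP 6 and KP 8 low, with all KPH2 values inside the KP range. The log2 fold change was -0.18 ± 0.25 (SE), with a 95% interval from -0.74 to 0.38 and an adjusted p of 0.756 by edgeR.

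Tead1 (chr7:112679356-112906784), a DNA-binding partner of YAP and TAZ, was at 519.7, 454, 552 and 452 CPM in KP 5 to 8, at 503, 465 and 293 CPM in KPH2 2 to 4, and at 580.5 CPM in KPH2 1. Only KPH2 4 lay below the KP range, and the groups overlapped. Its log2 fold change was -0.23 ± 0.21, with an interval from -0.71 to 0.24 and an edgeR adjusted p of 0.610.

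Wwtr1 (chr3:57455644-57575910), the gene of TAZ, was the steadiest of the 10 in KP tumours, at 513, 513, 515 and 526 CPM in KP 5 to 8. KPH2 2, 3 and 4 were at 675, 464 and 544 CPM, on both sides of the KP values, with a log2 fold change of 0.12 ± 0.16, an interval from -0.25 to 0.48 and an edgeR adjusted p of 0.766. KPH2 1 stood apart from every other tumour at 2175 CPM, 4.22-fold the median of the other 7. With it added the log2 fold change was 0.90 ± 0.47 and the adjusted p 0.409, so that the size of the difference came from this tumour. Within a tumour, TAZ transcripts outnumbered those of YAP throughout. The ratio of Wwtr1 to Yap1 in CPM was 2.14, 3.40, 2.10 and 3.83 in KP 5 to 8, 4.76, 2.34 and 3.18 in KPH2 2 to 4, and 9.80 in KPH2 1. Over the 7 tumours the log2 ratio differed by 0.25 between the groups (exact permutation test, 2-sided p = 0.543, adjusted p = 0.655 over 12 tests).

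The high Wwtr1 of KPH2 1 was shared by several nearby genes on chromosome 3, a pattern looked for after the value of Wwtr1 was seen. Of the 10 nearest tested genes, 5 on each side, 5 were more than 1 log2 unit above the median of the other 7 tumours in KPH2 1, against 3.57% of all genes tested in that tumour. They were Commd2 at 92.2 CPM (5.52-fold the median), Pfn2, an actin-binding profilin, at 341 CPM (4.39-fold), Rnf13 at 487 CPM (4.28-fold), Tm4sf1, a tetraspanin-like surface protein, at 981 CPM (3.08-fold) and Nbea (2.19-fold). In the other 7 tumours Commd2 was counted at 12.5 to 24.7 CPM, Pfn2 at 45.0 to 129 CPM, Rnf13 at 79.7 to 155 CPM and Tm4sf1 at 179 to 403 CPM. Nbea, whose lowest coordinate is 1.83 Mb below that of Wwtr1, came closest, at 145 to 322 CPM against 401 CPM in KPH2 1, and Mab21l1, which lies within the span of Nbea, was 0.91-fold the median. Tm4sf4, between Tm4sf1 and Wwtr1, was low everywhere and 1.76-fold the median in KPH2 1, and Tsc22d2, whose lowest coordinate lies 0.959 Mb above that of Wwtr1, was 0.87-fold. In none of the other 79 pairings of a gene of the 10 with a tumour were more than 3 of the 10 neighbours that far above the median. DNA copy number was not measured. Among the targets in KPH2 1, Ankrd1, at 18.5 CPM, and Amotl2, at 17.0 CPM, were each at their lowest of all 8 tumours, Cyr61 was among the other KPH2 values, and Ctgf, at 178 CPM, was the highest of the 4 KPH2 tumours.

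**Figure D2:**
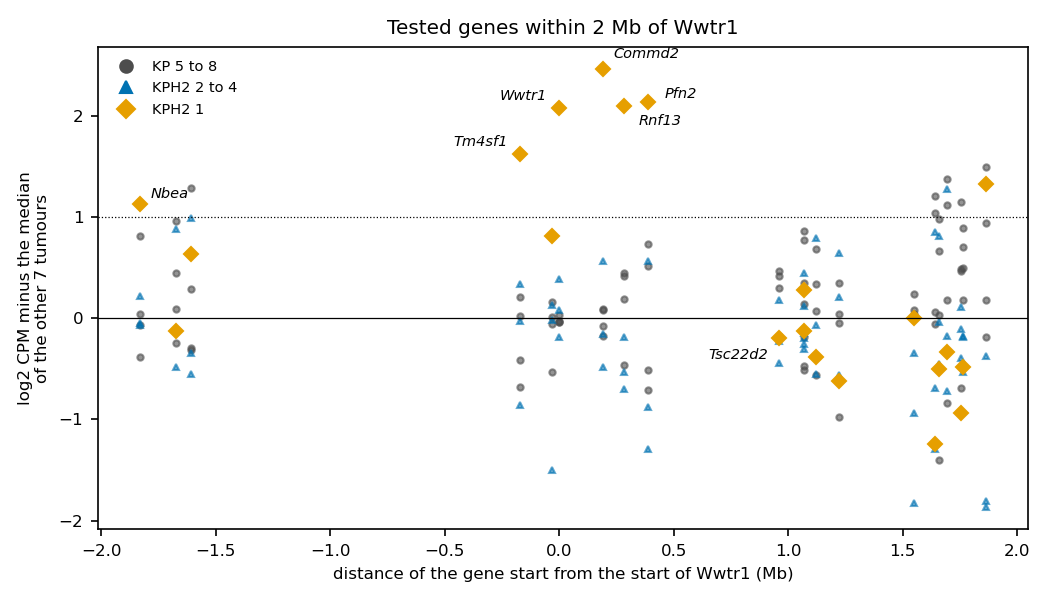
Log2 CPM of each tested gene within 2 Mb of Wwtr1, minus the median of the other 7 tumours, against the distance in Mb between the lowest coordinate of the gene and that of Wwtr1, with KP 5 to 8 as circles, KPH2 2 to 4 as triangles and KPH2 1 as diamonds. The dotted line marks 1 log2 unit; Tm4sf1, Wwtr1, Commd2, Rnf13 and Pfn2 lie between 1.62 and 2.46 in KPH2 1, and Tsc22d2 lies near 0.

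In the kinase module, both LATS transcripts were lower in KPH2 2 to 4 without passing the threshold, and the scaffold Sav1 overlapped. Lats1 (chr10:7681200-7716461) was counted at 162, 179.7, 163 and 161 CPM in KP 5 to 8, and at 156, 99.97 and 105 CPM in KPH2 2 to 4. The KPH2 tumours lay below all KP tumours, KPH2 2 by a narrow margin, while KPH2 1, at 198 CPM, lay above them. The log2 fold change was -0.47 ± 0.18 over the 7 tumours, with an interval from -0.88 to -0.06 and an edgeR adjusted p of 0.220. It was -0.25 with KPH2 1 included, where the groups overlapped. The exact permutation test over 7 tumours gave p = 0.029, the smallest it can give, and 0.171 adjusted over 12 tests.

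Lats2 (chr14:57689662-57746212) was counted at 72.6, 72.3, 84.1 and 92.4 CPM in KP 5 to 8, at 62.6, 68.0 and 66.3 CPM in KPH2 2 to 4, and at 54.6 CPM in KPH2 1. It was the only gene of the 10 for which all 4 KPH2 tumours lay on one side of all 4 KP tumours, found for 8.15% of all genes tested over 8 tumours in either direction and for 4.39% with KPH2 lower. The log2 fold change was -0.29 ± 0.14 over 7 tumours (edgeR adjusted p = 0.335) and -0.35 ± 0.14 over 8 (adjusted p = 0.289), and the exact permutation test over 8 tumours gave p = 0.029, or 0.343 adjusted over 12 tests.

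Sav1 (chr12:69965009-69988141) was at 76.5, 88.3, 74.3 and 91.1 CPM in KP 5 to 8, at 100.5, 72.3 and 88.4 CPM in KPH2 2 to 4 and at 103 CPM in KPH2 1. Its log2 fold change was 0.07 ± 0.16, with an interval from -0.29 to 0.44 and an edgeR adjusted p of 0.859. The ratio of Lats2 to Lats1 in CPM was 0.449, 0.403, 0.515 and 0.573 in KP 5 to 8, 0.401, 0.681 and 0.634 in KPH2 2 to 4, and 0.276 in KPH2 1. The log2 ratio differed by 0.21 over the 7 tumours (exact permutation test, 2-sided p = 0.457, adjusted p = 0.655) and by -0.04 over all 8, so that the balance of the kinases had no fixed direction between the groups.

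The targets are read through TEAD, so their promoters were searched for its core. The 250 bases before the transcription start were taken from RefSeq (GRCm38.p6) for 8 of the 10 genes. Ctgf and Tead1 had no entry and were not searched. The TEAD core GGAATG, read on both strands (CATTCC on the other), was found in 6 of these 8, and in 12.6% of the 32851 promoters of the table. Genes are counted over 10 windows, since Wwtr1 and Lats2 have 2 each, and the shares are per promoter. The 30 bases around each core of the 3 targets with an entry are printed 5′ to 3′ on the strand of the gene, with the core in capitals, since these targets hold the same core and the fold changes given below had opposite signs in Ankrd1 and the other 2.
Cyr61 (chr3:145650071-145650100, minus strand): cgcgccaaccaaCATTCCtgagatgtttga
Ankrd1, core farther from the start (chr19:36120037-36120066, minus strand): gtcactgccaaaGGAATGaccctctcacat
Ankrd1, core nearer the start (chr19:36119950-36119979, minus strand): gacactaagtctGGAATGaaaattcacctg
Amotl2 (chr9:102717727-102717756, plus strand): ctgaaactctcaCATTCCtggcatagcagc
Counting back from the start site of each window, Ankrd1 held the core at -210 to -205 and at -123 to -118, Cyr61 at -103 to -98 and Amotl2 at -65 to -60. The windows of Amotl2 (chr9:102717554-102717803) and Sav1 (chr12:69987003-69987252) lie inside the gene spans given here, as does 1 of the 2 of Lats2. The start used for these windows is therefore an internal one, and not the outermost of the gene. Yap1, Wwtr1 and Sav1 held it as well, and Lats1 and Lats2 did not. The core of the hypoxia response element has an A or a G as its first base, and both forms were read on both strands. The form ACGTG was found in Yap1, Lats1 and Lats2, and in 16.6% of all promoters. The form GCGTG was found in Yap1, Wwtr1, Lats1, Sav1 and Cyr61, and in 28.2% of all promoters. In Yap1 and Lats2 the matches to ACGTG on the 2 strands overlap in a single CACGTG. A match is a description of these letters and not a bound site.

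Ankrd1 (chr19:36111965-36119844), which encodes a stress-responsive ankyrin repeat protein of heart and skeletal muscle and is a YAP target, rose in KPH2 2 to 4 and not in KPH2 1. It was counted at 22.4, 52.5, 29.1 and 35.02 CPM in KP 5 to 8, and at 102, 111 and 101 CPM in KPH2 2 to 4. The lowest of these KPH2 tumours was well above the highest KP tumour, KP 6. KPH2 1, at 18.5 CPM, was below every other tumour. KP tumours averaged 34.7 ± 12.9 CPM (SD, n = 4) and KPH2 2 to 4 averaged 105 ± 5.35 CPM (SD, n = 3), a log2 fold change of 1.59 ± 0.27 with an interval from 0.99 to 2.20, or 3.02-fold, and an edgeR adjusted p of 0.0293. With KPH2 1 included the log2 fold change was 1.26 ± 0.51 and the adjusted p 0.303. The call was also lost without KP 7, KP 8, KPH2 2, KPH2 3 or KPH2 4, at adjusted p-values of 0.0765, 0.0701, 0.0907, 0.0680 and 0.0624, with log2 fold changes between 1.52 and 1.62. The exact permutation test over 7 tumours gave p = 0.029, the smallest it can give, and 0.171 adjusted over 12 tests.

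The mean level of skeletal muscle markers was also higher in each of KPH2 2 to 4 than in any KP tumour. The 30 markers, which include Acta1, Ckm and Ttn, had a mean log2 CPM of 4.36, 3.60, 3.22 and 4.41 in KP 5 to 8, 6.58, 7.21 and 4.86 in KPH2 2 to 4, and 3.25 in KPH2 1. All 30 had a positive log2 fold change over the 7 tumours, with a median of 2.20, and 3 of them passed edgeR's adjusted p, with 1.24% of all genes passing as higher in KPH2, while DESeq2 called 24 (7.95% of all genes in either direction). Limma on the authors' normalized values called 3, and 335 of all 14867 genes. Their summed level was 1846 to 3382 CPM in KP, 4371 to 19780 CPM in KPH2 2 to 4 and 1528 CPM in KPH2 1, with every marker counted in at least 1 tumour. KPH2 2, 3 and 4 were thus above every KP tumour in both Ankrd1 and the muscle score, and KPH2 1 was not. Among KP tumours the highest Ankrd1 was in KP 6 and the highest muscle score in KP 8. With the muscle score as a covariate over 7 tumours, the log2 fold change of Ankrd1 was 1.69 and its edgeR adjusted p 0.531. Over all 8 tumours with that covariate it was 0.36, with an adjusted p of 0.861. The score did not overlap between KP and KPH2 2 to 4, so over the 7 tumours these fits cannot tell muscle content apart from genotype. The number of all genes past the adjusted p went from 292 to 3 with this covariate. Over all 8 tumours, only KPH2 1 fell within the KP range of the score. The part of muscle in the difference of Ankrd1 was not tested. The closest relatives of Ankrd1, the muscle ankyrin repeat genes Ankrd2 and Ankrd23, had log2 fold changes of 0.66 and 1.21 and adjusted p-values of 0.497 and 0.349.

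**Figure D3:**
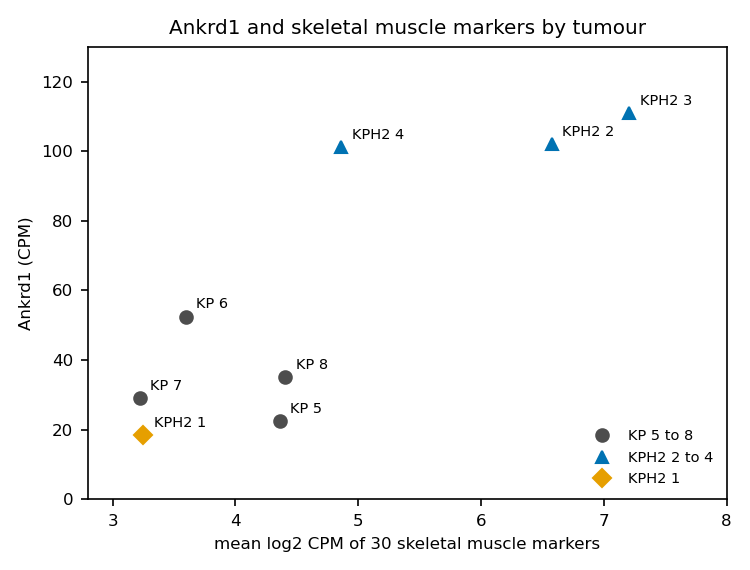
Ankrd1 in CPM (linear axis from 0) against the mean log2 CPM of 30 skeletal muscle markers in each tumour, with KP 5 to 8 as circles, KPH2 2 to 4 as triangles and KPH2 1 as a diamond. KPH2 2 to 4 lie at 101 to 111 CPM over muscle scores from 4.86 to 7.21, and KPH2 1, at a score of 3.25, lies at 18.5 CPM with the KP tumours.

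Ctgf (named Ccn2 in RefSeq, chr10:24595442-24598683), a secreted matricellular protein and the most widely used readout of YAP and TAZ, ran the other way and was the most variable of the 10 among KP tumours. It was counted at 451, 181, 316 and 76.8 CPM in KP 5 to 8, at 87.9, 84.8 and 59.8 CPM in KPH2 2 to 4, and at 178 CPM in KPH2 1. KP 5, 6 and 7 were above all of KPH2 1 to 4, and KP 8 was among the KPH2 values. KP tumours averaged 256 ± 163 CPM (SD, n = 4) and KPH2 2 to 4 averaged 77.5 ± 15.4 CPM (SD, n = 3). The log2 fold change was -1.73 ± 0.54, with an interval from -2.97 to -0.48 and an edgeR adjusted p of 0.148, above the threshold, and -1.32 ± 0.53 with KPH2 1 included (adjusted p = 0.303). DESeq2 placed it past the threshold over the 7 tumours, at an adjusted p of 0.00831. The exact permutation test, which carries no model of the spread, gave p = 0.114 over 7 tumours.

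Cyr61 (named Ccn1 in RefSeq, chr3:145646971-145649985), the closest relative of Ctgf and also secreted, was at 108, 157, 152 and 86.0 CPM in KP 5 to 8, at 94.2, 69.9 and 47.3 CPM in KPH2 2 to 4, and at 73.5 CPM in KPH2 1. KP 8 again was the lowest KP tumour, and lay below KPH2 2. The log2 fold change was -0.83 ± 0.29, with an interval from -1.50 to -0.17 and an edgeR adjusted p of 0.188, and with KPH2 1 included it was -0.82 ± 0.25 (adjusted p = 0.218). The other genes of the CCN family did not move as one. Nov had a log2 fold change of -1.24, Wisp1 of 0.45 and Wisp2 of 0.70, with adjusted p-values from 0.421 to 0.550, and Wisp3 was too low to test.

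Amotl2 (chr9:102717091-102733418), an angiomotin that binds YAP and also answers to it, was at 60.2, 43.3, 54.4 and 38.0 CPM in KP 5 to 8, at 31.2, 55.3 and 34.1 CPM in KPH2 2 to 4, and at 17.0 CPM in KPH2 1. The groups overlapped through KPH2 3. The log2 fold change was -0.28 ± 0.25 over 7 tumours, with an interval from -0.86 to 0.29 and an edgeR adjusted p of 0.609, and -0.51 ± 0.32 over 8 (adjusted p = 0.501).

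Endothelial and perivascular cells also express Ctgf and Cyr61, and most of their markers had negative log2 fold changes without passing edgeR's threshold. The 8 endothelial markers summed to 296 to 544 CPM in KP, 258 to 291 CPM in KPH2 2 to 4 and 216 CPM in KPH2 1, with 7 of 8 log2 fold changes negative (52% of all genes) and a median of -0.58. Of these, 0 passed edgeR's adjusted p, 4 were lower at an unadjusted p under 0.05 (9.26% of all genes), DESeq2 called 3 (7.95%) and limma 0 (335 of all 14867 genes). The 8 smooth muscle and pericyte markers summed to 435 to 1047 CPM in KP, 324 to 957 CPM in KPH2 2 to 4 and 234 CPM in KPH2 1, and these ranges overlapped. Again 7 of 8 log2 fold changes were negative, with a median of -0.64 and 1, Cnn1, past edgeR's adjusted p (1.96% of all genes in either direction). At an unadjusted p under 0.05, 2 were lower and 1 higher (9.26% and 8.5% of all genes), DESeq2 called 2 (7.95%) and limma 1. The 8 immediate early genes, which rise with tissue handling, summed to 217 to 291, 218 to 348 and 253 CPM. The part of these cells in the results for Ctgf and Cyr61 was not tested.

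Across the 10 genes, 1 passed the adjusted p over the 7 tumours, Ankrd1, with 1.96% of all 14867 tested genes passing in either direction and 1.24% in the direction higher in KPH2. At an unadjusted p under 0.05 there were 4 of 10, Ankrd1 higher and Lats1, Ctgf and Cyr61 lower, where 17.8% of all genes were (8.5% higher and 9.26% lower). The groups did not overlap for 3 of 10, Ankrd1, Lats1 and Lats2, against 16.9% of all genes (8.73% with KPH2 higher, as Ankrd1, and 8.15% with KPH2 lower). The fold change was below 0 for 7 of the 10, and for 52% of all genes, and the median log2 fold change was -0.26, against -0.02 over all genes. With all 8 tumours none of the 10 passed edgeR's adjusted p, where 0.00675% of all genes did, 4 of 10 had an unadjusted p under 0.05 (14.7% of all genes), and DESeq2 also called 0 (4.14% of all genes). Over the 7 tumours DESeq2 called 2 of the 10, Ankrd1 and Ctgf, and 7.95% of all genes.

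**Figure D4:**
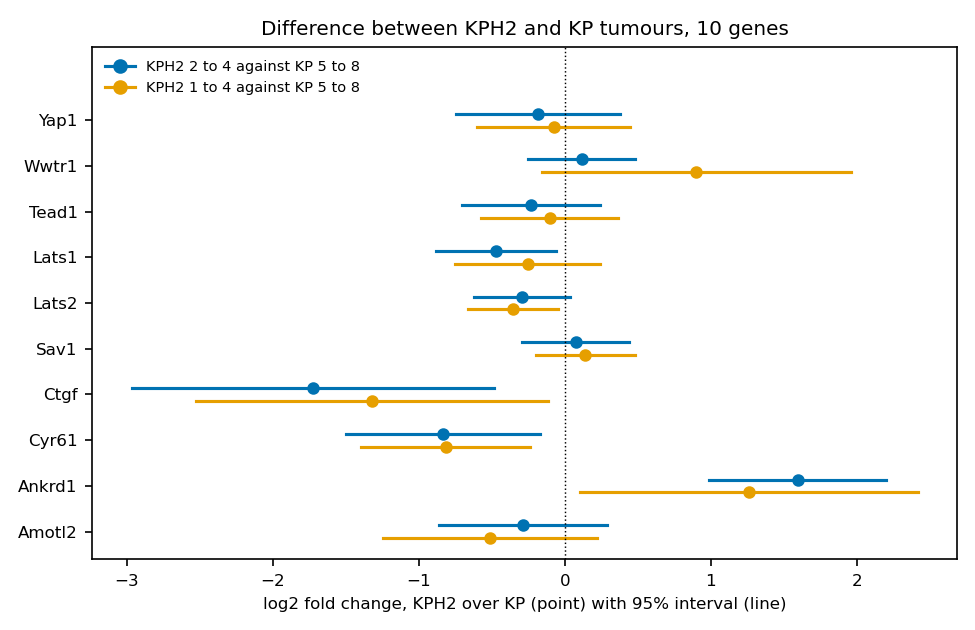
Log2 fold change of each of the 10 genes, KPH2 over KP, as a point with its 95% interval as a line, for KPH2 2 to 4 and for all 4 KPH2 tumours. The interval of Ankrd1 over 7 tumours runs from 0.99 to 2.20 and that of Ctgf from -2.97 to -0.48, and Wwtr1 goes from 0.12 to 0.90 when KPH2 1 is added.

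Of 28 further genes of the Hippo pathway, 27 were in the table and 25 were tested, and 0 passed edgeR's adjusted p over the 7 tumours. At an unadjusted p under 0.05, 4 were higher and 3 lower, where 8.5% and 9.26% of all genes were, and DESeq2 called 5, with 7.95% of all genes called. The median log2 fold change was 0.03. The 5 with the smallest p by edgeR were Tead4, Fat4, Amot, Stk3 and Dchs1, which are also the 5 that DESeq2 called. Tead4, the TEAD factor best known from muscle differentiation, was at 12.6 to 18.6 CPM in KP, 50.9, 23.4 and 36.6 CPM in KPH2 2 to 4 and 14.5 CPM in KPH2 1, with a log2 fold change of 1.26 ± 0.27 and an edgeR adjusted p of 0.0567. Like Ankrd1, it was high in KPH2 2 to 4 and at the KP level in KPH2 1. Amot, an angiomotin that holds YAP outside the nucleus, was at 51.7 to 88.7 CPM in KP and at 163, 204 and 98.1 CPM in KPH2 2 to 4, and here KPH2 1, at 190.5 CPM, was also high. Its log2 fold change was 1.10 ± 0.28 over 7 tumours and 1.19 over 8, with adjusted p-values of 0.0841 and 0.125.

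The other 3 had negative log2 fold changes and did not pass edgeR's threshold. DESeq2 called all 3 over the 7 tumours, at adjusted p-values of 0.00228 for Fat4, 0.0251 for Dchs1 and 0.0355 for Stk3. Fat4, an atypical cadherin, was at 358, 262, 139 and 234 CPM in KP 5 to 8 and at 76.8, 124 and 102 CPM in KPH2 2 to 4, with a log2 fold change of -1.30 ± 0.32 and an edgeR adjusted p of 0.0795. Its ligand Dchs1 was at 535, 214, 205 and 216 CPM in KP and at 68.95, 183 and 76.6 CPM in KPH2 2 to 4, with a log2 fold change of -1.42 ± 0.48 and an adjusted p of 0.182. KPH2 1 was within the KP range for Fat4, at 277 CPM, and beside KPH2 3 for Dchs1, at 182 CPM. Stk3, the kinase MST2, was at 70.8 to 125 CPM in KP, 48.7 to 73.3 CPM in KPH2 2 to 4 and 71.7 CPM in KPH2 1, with a log2 fold change of -0.81 ± 0.24 and an adjusted p of 0.125.

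Of 17 further YAP and TAZ targets, 16 were tested and 0 passed edgeR's adjusted p. At an unadjusted p under 0.05, 1 was higher and 2 lower (8.5% and 9.26% of all genes), DESeq2 called 2, Crim1 and Fjx1 (7.95% of all genes), and the median log2 fold change was -0.00. Fjx1, the relative of a fly kinase that acts on Fat and Dachsous cadherins, was at 16.2 to 25.6 CPM in KP, 2.25, 9.81 and 4.51 CPM in KPH2 2 to 4 and 18.5 CPM in KPH2 1, with a log2 fold change of -1.88 ± 0.46 and an adjusted p of 0.0795. Crim1, a transmembrane protein that binds BMPs, was at 37.6 to 85.7 CPM in KP, 32.6 to 35.02 CPM in KPH2 2 to 4 and 83.6 CPM in KPH2 1, with a log2 fold change of -0.96 ± 0.27 and an adjusted p of 0.118. The phosphatase Ptpn14 (0.88 ± 0.32), the secreted protein Ccdc80 (0.84 ± 0.42) and the growth factor Tgfb2 (0.69 ± 0.37) had positive log2 fold changes, with adjusted p-values from 0.201 to 0.382.

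**Figure D5:**
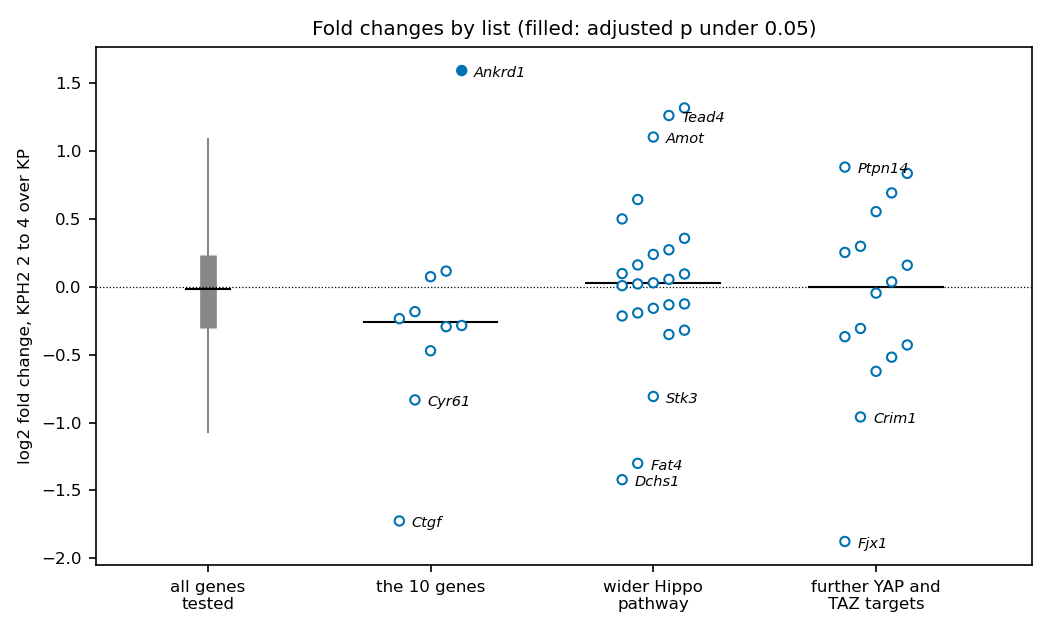
Log2 fold change of KPH2 2 to 4 over KP for each tested gene of the 3 lists, with a bar at each list's median, beside all genes tested (box from the 25th to the 75th percentile, line from the 5th to the 95th). Filled points passed the adjusted p, Ankrd1 being the one that did, and the medians are -0.26 for the 10 genes, 0.03 for the wider pathway, -0.00 for the further targets and -0.02 for all genes.

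The genes whose pattern over the 8 tumours was most like that of Yap1, Ctgf or Ankrd1 were found as those with the smallest root mean square difference in centred log2 CPM among 14804 genes, a description with no test. For Yap1 they were Haus7 (0.107), Scap (0.121) and Dnmt1 (0.124), for Ctgf the lowly counted Gm15958 (0.171), Eno2 (0.305) and Crispld2 (0.330), and for Ankrd1 Hoxa5 (0.267), Ddit4l (0.304) and Fam40b (0.317). The choice by likeness over the same 8 tumours favours the order of Ankrd1 itself. Each of the 3 most like Ankrd1 was higher in KPH2 2 to 4 than in any KP tumour and lowest in KPH2 1, and none exceeded 19.3 CPM. Markers of the remaining cell types had these sums. The 8 macrophage markers summed to 1492 to 2639 CPM in KP, 970 to 1599 CPM in KPH2 2 to 4 and 1148 CPM in KPH2 1, and the 6 T cell markers to 8.89 to 25.4, 11.3 to 20.7 and 4.64 CPM. All 8 macrophage log2 fold changes were negative over the 7 tumours (52% of all genes), with a median of -0.58. Of these, 0 passed edgeR's adjusted p, and 4 were lower at an unadjusted p under 0.05 (9.26% of all genes). The 6 adipocyte markers summed to 4.08 to 24.98, 3.90 to 4.62 and 9.19 CPM, and the 6 Schwann cell markers to 72.2 to 115, 63.1 to 75.1 and 67.8 CPM. The 6 epithelial markers summed to 3.85 to 6.98 CPM in KP, 50.1 to 523 CPM in KPH2 2 to 4 and 58.3 CPM in KPH2 1, and Krt5 and Krt14 were never counted. Of the 3 tested, 2 passed edgeR's adjusted p as higher in KPH2 (1.24% of all genes). The median log2 fold change of these 3 was 5.73 over the 7 tumours. Their part in the results was not tested.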

How the data were processed

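RNA-seq counts of 8 UPS tumours, 4 KP and 4 KPH2 with 1 library each, were analysed. The authors aligned reads to GRCm38 with STAR 2.4 and deposited raw counts of unique alignments per RefSeq gene from HTSeq 0.6.1, whose strand setting is not given in the sources used here. Log2 values deposited beside them are DESeq2's rlog values, which shrink low genes toward their mean, over 7 tumours and over 8.

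Counts were tested in R 4.3.3 with edgeR 4.0.16 (TMM, filterByExpr with a minimum count of 10 and total of 15, robust quasi-likelihood test), with no covariate and a Benjamini-Hochberg adjusted p under 0.05 over all tested genes. Errors of log2 fold changes are SE, taken as the absolute log2 fold change over the square root of the F statistic of the test. Intervals are at 95% and use these SE with a t quantile. CPM were scaled by TMM over all 8 libraries, and log2 CPM used a prior count of 2. Exact permutation tests over 35 splits (70 for 8 tumours) were 2-sided, adjusted over 12 tests. Levels per kb used GENCODE M21 exon lengths. Promoters and positions came from RefSeq (GRCm38.p6). The fit was also run on simulated counts as a check of the code, and no result given here rests on that run.

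The genes, lists and tests were chosen with earlier results of these data known. Besides the 10 genes, those named are Epas1, the 5 with the smallest p in each longer list, 6 relatives of Ctgf and Ankrd1, and 3 like patterns for Yap1, Ctgf and Ankrd1. The neighbours of Wwtr1 and Cnn1 were named after their values were seen. Total counts ran from 6463221 to 13155510, and the spread within groups corresponded to a coefficient of variation of 0.313. The closest pair of libraries still differed beyond sampling noise (chi-square over degrees of freedom, 30.4), so each was counted as a separate sample. Alternatives were all 8 tumours, other normalizations and filters, each tumour left out, a skeletal muscle score as covariate, no robust estimates, a prior count of 0.5, limma 3.58.1 on the authors' rlog values, and DESeq2 1.42.0. One item of the genotype that both groups share is not reported here.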

Additional observations from a re-analysis of the deposited data

Results flagged for a closer look

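The 10 genes, Epas1, the genes named from the longer lists, the relatives of Ctgf and Ankrd1 and the log2 ratios were checked by Dixon's criterion on the log2 scale, and of 58 groups of 4 tumours 6 held 1 tumour far from the other 3, and chance gives about 1 in 20. Among the 10 genes, Ankrd1 was at 18.5 CPM in KPH2 1 against 101 to 111 CPM in the other KPH2 tumours, and Lats1 at 179.7 CPM in KP 6 against 161 to 163 CPM in the other KP tumours. Epas1 was low in KP 5, at 59.2 CPM against 83.2 to 86.9 CPM in the other KP tumours. In the longer lists, Dchs1 was high in KP 5, at 535 CPM against 205 to 216 CPM, Crim1 was high in KPH2 1, at 83.6 CPM against 32.6 to 35.02 CPM, and Ccdc80 was high in KPH2 3, at 171 CPM against 50.4 to 60.3 CPM. Of the 6, 2 were in KPH2 1, the tumour the study left out.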

How the results depend on the processing

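No paired analysis was possible because the groups share no replicate numbers. Over 180 alternatives for the 10 genes, 167 kept the direction and the side of the threshold. Ankrd1 kept its direction in all 18 of its alternatives, with log2 fold changes from 0.36 to 1.86, and lost its call in 9, with adjusted p-values from 7.48e-06 to 0.861. The number of the 10 genes past the adjusted p was 1, 2 with DESeq2 (Ankrd1 and Ctgf), and 0 with all 8 tumours, with the muscle covariate, with both, and with DESeq2 over 8 tumours. It was 0 to 1 with a tumour left out. For all genes the 292 became 1 with all 8 tumours, 1179 with DESeq2, 610 with DESeq2 over 8 tumours, 3 with the muscle covariate, 0 with it over 8 tumours, and 55 to 349 with a tumour left out, lowest without KPH2 2. DESeq2 over 8 tumours and the covariate over 8 tumours were chosen after seeing the data. In the wider pathway the count of 0 became 1 without the filter on low counts (Tead4), 5 with DESeq2, 1 with DESeq2 over 8 tumours (Amot), and 0 to 1 with a tumour left out (Tead4 without KPH2 3). Among the further targets it became 2 with DESeq2, 1 with limma on rlog values (Fjx1), and 0 to 1 with a tumour left out. The genes gained were Ptpn14 without KP 5 (log2 fold change 1.28), Crim1 without KP 8 (-1.15) and Fjx1 without KPH2 3 (-2.59). Directions turned for Yap1 (0.057, covariate over 8 tumours), for Wwtr1 (-0.037 to 0.24), Sav1 (-0.040 to 0.19) and the log2 ratio of Wwtr1 to Yap1 (-0.021 to 0.49) with a tumour left out, each negative without KPH2 2, and for the log2 ratio of Lats2 to Lats1 (-0.039, all 8 tumours), none of them past a threshold. The causes were not tested. Group sizes of 4 and 3 let the permutation tests reach no p below 0.029. The 10 genes were each counted at least 196 times in every tumour, and the part of depth was not tested.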
